A study of Mus musculus with 6 samples.

Results

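The genes described here carry only placeholder symbols, Gm followed by a number or a clone name ending in Rik, and overlap a gene with another type of symbol on the same strand and none on the opposite strand. They were chosen from the coordinates and strand of the count table and a summed count of at least 30 over the 6 libraries, and 717 of 24379 listed genes met the rule. Symbols came from a table of gene names, since the count table pairs its Ensembl identifiers with none. RNA came from RAW264.7 cells, an established mouse line with macrophage features derived from a virus-induced tumour, and no genotype or allele is named for either group. In 3 libraries the cells are labelled as treated with high-fructose corn syrup (HFCS) for 18 h, at 140 mM in the titles and treatment labels and 170 mM in the source names. The other 3 libraries are labelled WT with the same time, here the control, and the sources used here do not say what those cells received. All 6 come from 1 cell line, and nothing says whether replicates are separate cultures, so the p-values speak of library-to-library spread alone, and that spread may be technical.

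Genes of this kind sit mostly in introns, the stretches that splicing removes from a primary transcript before it leaves the nucleus. Annotators give the class TEC to single-exon models that rest on sparse evidence and still need an experiment, and the class sense intronic to long noncoding models inside an intron of a coding gene on its strand. Processed pseudogenes are copies of a spliced messenger RNA put back into the genome, and many small nucleolar RNAs, which guide chemical modification of ribosomal RNA, are cut out of the introns of their host genes. A read that falls in such an intron may come from the unnamed gene or from unspliced RNA of the gene around it, and a count per gene does not tell these apart. The sources used here do not state whether counting used strand.

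Sequences are printed from the GENCODE M21 transcripts (build GRCm38, equal to mm10), 5′ to 3′ on the strand of the gene. The first set shows how little a pseudogene can differ from the messenger RNA it copies, because reads of both are then hard to place. Each stretch of 90 bases lies in the coding sequence of the copied gene, and capitals mark the bases at which the copy and the original differ. Gm13394 (chr2:28934220-28934309, minus strand) is set against Gapdh, which encodes a glycolytic enzyme, and Gm13509 (chr2:49308480-49308569, plus strand) against Ap2m1, a subunit of the clathrin adaptor. Gm13835 (chr6:31142432-31142521, minus strand) has no difference from the proteasome gene Psma3 in its window, so it is printed once.
Gm13394: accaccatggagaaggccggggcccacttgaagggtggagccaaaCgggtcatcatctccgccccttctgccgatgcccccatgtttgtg
Gapdh: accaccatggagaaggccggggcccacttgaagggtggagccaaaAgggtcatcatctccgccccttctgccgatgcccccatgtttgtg
Gm13509: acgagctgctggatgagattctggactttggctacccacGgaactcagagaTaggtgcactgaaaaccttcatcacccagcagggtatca
Ap2m1: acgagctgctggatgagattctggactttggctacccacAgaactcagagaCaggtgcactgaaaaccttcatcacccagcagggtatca
Gm13835 and Psma3: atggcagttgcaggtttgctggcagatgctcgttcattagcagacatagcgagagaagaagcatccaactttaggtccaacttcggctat

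A second set shows the annotated 3′ ends of intronic models, the last 100 bases of the transcript. Capitals mark AATAAA, the hexamer found upstream of most messenger RNA cleavage sites. Gm47140 (chr9:122847019-122847118, minus strand) and Gm45407 (chr8:77368841-77368940, minus strand) hold it, while Gm38365 (chr1:87900433-87900532, plus strand) and Gm43696 (chr3:104470660-104470759, minus strand) do not. These 4 are among the models whose values are given further on, and Gm47140 and Gm45407 were picked after their values were seen.
Gm47140: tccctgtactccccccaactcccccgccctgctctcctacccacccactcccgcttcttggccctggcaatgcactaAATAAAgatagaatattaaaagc
Gm45407: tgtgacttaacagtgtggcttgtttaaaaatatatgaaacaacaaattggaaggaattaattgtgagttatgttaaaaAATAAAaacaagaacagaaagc
Gm38365: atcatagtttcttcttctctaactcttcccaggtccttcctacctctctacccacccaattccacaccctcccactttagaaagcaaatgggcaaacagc
Gm43696: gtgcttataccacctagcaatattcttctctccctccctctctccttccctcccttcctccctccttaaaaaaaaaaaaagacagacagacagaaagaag
Searched on the transcript strand in the last 50 bases of the longest transcript, AATAAA was found in 59 of 367 TEC models of the set (16.1%) and 15 of 75 sense-intronic ones (20%). Of TEC genes outside the set with at least 30 counts, 100 of 269 (37.2%) held it, and of all genes with at least 30 counts 51.2%. No pseudogene among 118 held it, against 6.77% of 1079 pseudogenes outside the set. A match is a description of the letters, not a site in use.

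Most of the models have 1 exon, and a spliced one is shown for contrast. Gm16310 is a sense-intronic model with a junction between exon bases chr16:92094664-92094703 and chr16:92095667-92095706 (plus strand), and capitals mark the second exon.
Gm16310: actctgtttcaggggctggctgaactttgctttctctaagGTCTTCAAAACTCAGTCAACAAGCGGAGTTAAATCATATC

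Total counts were 13108485 to 15340255 per library, and a floor of 3 counts, used for genes without counts, was 0.190 to 0.223 CPM (counts scaled to a common library size). Akr1b3, the aldose reductase gene known to rise under osmotic and sugar stress, lay at 195 to 217 CPM in the libraries labelled HFCS and at 7134 to 7864 CPM in those labelled control, so the groups are named by their labels throughout. All 10 macrophage markers checked were in the table, 9 with at least 30 counts, and they summed to 2521 to 2630 CPM under HFCS and 1957 to 2031 CPM in control. The 3 endothelial markers summed to 1.20 to 1.70 CPM under HFCS and 3.46 to 5.13 CPM in control. The 3 neutrophil markers in the table summed to 0.886 to 1.11 CPM under HFCS and 0.565 to 0.832 CPM in control, and the 4 fibroblast markers to 0.850 to 1.78 CPM and 0.208 to 0.881 CPM. The part of these marker differences in the results below was not tested. Listed epithelial, T-cell and erythroid markers summed to under 1 CPM in each library. The 3 B-cell markers in the table summed to 3.79 to 4.56 CPM under HFCS and 4.30 to 4.38 CPM in control. In whole cultures fewer cells holding an RNA and less of it per cell cannot be told apart.

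Of the 717 genes, 367 were TEC, 118 pseudogenes (99 annotated as processed and 8 as transcribed processed), 76 small RNAs (39 small nucleolar), 75 sense intronic, 50 other long RNAs and 31 protein coding. They overlapped 615 genes, and 81 of these held more than 1, so members that share an overlapped gene share its transcript. For 621 the model lay wholly in an intron, 47 lay inside the overlapped gene and shared exon bases with it, 41 reached partly outside it and 8 spanned it, so 49 were not inside a gene. Intronic TEC models had a median length of 2272 bases and lay a median of 1882 bases from the nearest exon, in introns of median length 10863 bases. All 367 TEC models had a single exon.

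Counts were low, with a median of 78 over the 6 libraries together, 412 genes under 100 and 33 over 1000. Per kilobase of exon, the median TEC model lay at 3.31% of the level of its overlapped gene in the HFCS libraries and at 6.14% in control (364 pairs). Sense-intronic models were close to this, at 4.19% and 7.49% (75 pairs). The level per kilobase relative to the overlapped gene was greater for small RNAs (15% and 30.7%), pseudogenes (19.98% and 21.2%) and protein-coding members (30.1% and 25.5%). Of all 695 pairs whose overlapped gene has at least 30 counts and an exon model, 56 had the unnamed gene above the overlapped one per kilobase under HFCS and 65 in control, so most members were the lesser of the pair.

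Setting the HFCS-labelled libraries against the control-labelled ones shows which of these genes moved with the label. Members lay lower under HFCS more often than higher, while 164 of 587 tested overlapped genes fell and 132 rose. With no filter, 252 of the 717 had every HFCS value below every control value and 44 had every one above (35.1% and 6.14%). Among the 15995 genes with at least 30 counts, the background shares were 26.4% lower and 25.2% higher. Of the 472 members with enough counts for edgeR's quasi-likelihood test, 168 fell and 23 rose at an adjusted p under 0.05 and 281 did not pass. Over all 14360 genes tested 44.9% passed, 22.5% lower and 22.4% higher, so the share of members that passed (191 of 472) was near the background, and the split by direction was not. Other unnamed genes leaned the same way, so this lean was not particular to the members. Of 827 tested that overlap a named gene on the opposite strand only, 219 fell and 57 rose (median log2 fold change -0.33). Of 1256 tested that overlap no named gene, 242 fell and 130 rose (median -0.12). The median log2 fold change was -0.57 over the tested members, -0.04 over 587 overlapped genes and -0.0045 over all genes. Scaling by library size alone moved the split over all genes to 18.3% lower and 27.7% higher, and that of the members to 147 lower and 30 higher. Some 115 members reached the filter through the control libraries only and 38 through the HFCS libraries only. In such genes every library of the named group reached the cutoff and not every library of the other did. Entry of this kind favours a difference in that direction without forcing it. Without HFCS replicate 2 the number that rose was 14.

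TEC and sense-intronic models made up most of the members that fell. Of 241 tested TEC models 108 fell and 3 rose (median log2 fold change -0.79), and of 55 sense-intronic models 23 fell and 4 rose (median -0.73). All 11 small RNAs that passed among 40 tested fell, and their median was -0.58. Pseudogenes were more even, with 13 lower and 7 higher of 70 and a median of -0.19, and other long RNAs had 11 lower and 5 higher of 38. Protein-coding members had 4 higher and 2 lower of 28 and a median of 0.23. By place, models wholly in an intron had 151 lower and 13 higher of 401, and those reaching partly outside the overlapped gene 5 lower and 9 higher of 33. Over all genes tested 22.5% fell and 22.4% rose. The difference between kinds or places was not tested, and kinds also differed in how they entered the test. Of the tested TEC models 70 reached the filter through the control libraries only and 11 through the HFCS libraries only. These counts were 17 and 6 for sense-intronic models, 12 and 2 for small RNAs and 9 and 7 for pseudogenes. Counting all 367 TEC models without a filter, 158 had HFCS values wholly below control and 11 wholly above, and the same count gave 20 and 12 for the 118 pseudogenes.

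**Figure D1:**
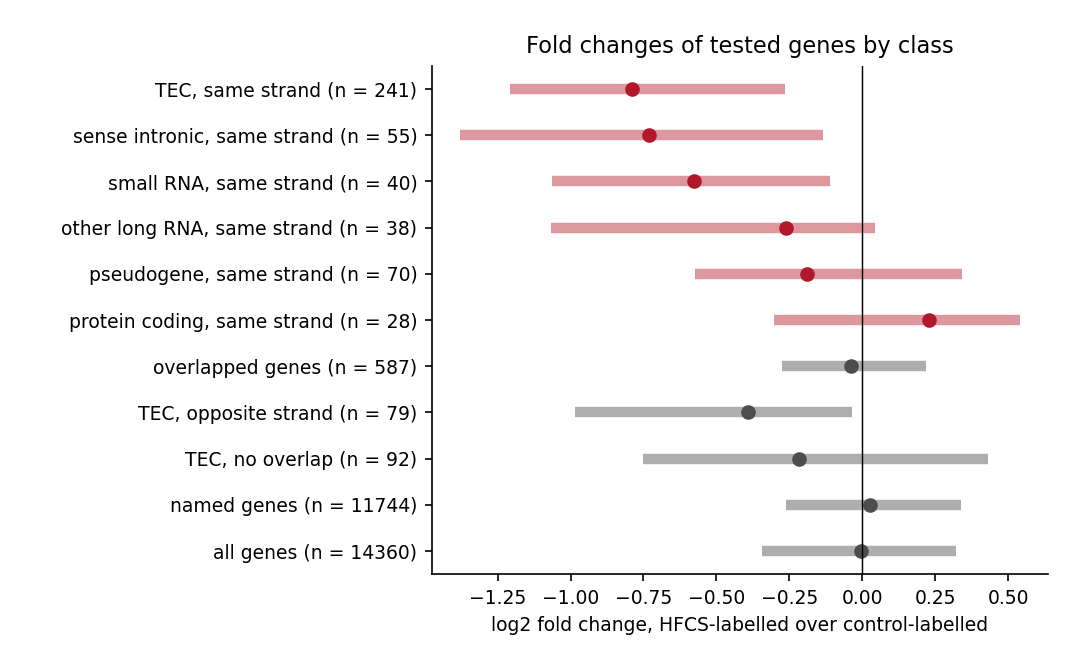
Log2 fold change of tested genes (horizontal axis, HFCS-labelled over control-labelled) by class (rows, with the number tested). Points are medians and bars run from the lower to the upper quartile, in red for unnamed genes on the same strand and in grey for the classes set beside them. TEC, sense-intronic and small RNA members have medians of -0.79, -0.73 and -0.58, and all genes a median near 0.

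TEC models elsewhere in the genome give a comparison of the same annotation class. Of 79 tested TEC models that overlap a named gene on the opposite strand only, 22 fell and 6 rose, with a median of -0.39, and of 92 that overlap no named gene 21 fell and 13 rose, with a median of -0.22. In the same order, 21 and 18 reached the filter through the control libraries only, and 7 and 17 through the HFCS libraries only. Small RNAs and pseudogenes outside the set also leaned lower on the opposite strand. There, 4 fell and 0 rose of 14 small RNAs (median -0.76), and 30 fell and 2 rose of 124 pseudogenes (median -0.36). With no overlap, 0 fell and 1 rose of 6 small RNAs (median -0.16), and 56 fell and 39 rose of 455 pseudogenes (median -0.03). The summed level of the 335 intronic TEC members, divided by that of TEC genes with no overlap, was 1.23, 1.397 and 1.37 in the HFCS libraries, in order of replicate, and 1.95, 1.95 and 1.81 in the control libraries. All HFCS ratios were below all control ratios (two-sided exact permutation p = 0.1, the smallest that 3 libraries against 3 allow). The ratio to TEC genes on the opposite strand was 2.26 ± 0.0709 (SD, n = 3) under HFCS and 2.96 ± 0.08701 (SD, n = 3) in control, also without overlap (exact permutation p = 0.1).

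Summed over the 408 TEC and sense-intronic models wholly in an intron, the level was 524, 595 and 583 CPM in the HFCS-labelled libraries and 929, 1063 and 973 CPM in the control-labelled ones. The groups did not overlap, and the means were 567 ± 37.7 (SD, n = 3) and 988 ± 68.3 (SD, n = 3) CPM, 1.74 times as much in control (two-sided exact permutation p = 0.1). The 348 genes around them summed to 39528, 39847 and 40632 CPM and 40404, 44006 and 42926 CPM, with groups that overlapped (1.06 times as much in control, exact permutation p = 0.2). As a percentage of the summed level of those genes, the intronic models stood at 1.42 ± 0.0844 (SD, n = 3) under HFCS and 2.33 ± 0.0781 (SD, n = 3) in control. The median log2 ratio of a model to its gene was -6.65, -6.48 and -6.43 under HFCS and -5.80, -5.69 and -5.88 in control, and these groups did not overlap either (exact permutation p = 0.1).

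Other kinds summed differently. The 72 intronic small RNAs stood at 57.3, 59.8 and 55.8 CPM under HFCS and 79.1, 90.9 and 89.9 CPM in control, with all control values higher (1.504 times, exact permutation p = 0.1). The 110 intronic pseudogenes stood at 1369.9, 1413 and 1388 CPM and 1555, 1386 and 1609 CPM, with groups that overlapped (exact permutation p = 0.3). The 31 protein-coding members were at 277, 269 and 296 CPM under HFCS and 241, 256 and 255 CPM in control, all HFCS values above all control values (exact permutation p = 0.1). All 717 together held 0.313 ± 0.006901 (SD, n = 3) percent of counts under HFCS and 0.352 ± 0.00609 (SD, n = 3) in control (exact permutation p = 0.1).

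**Figure D2:**
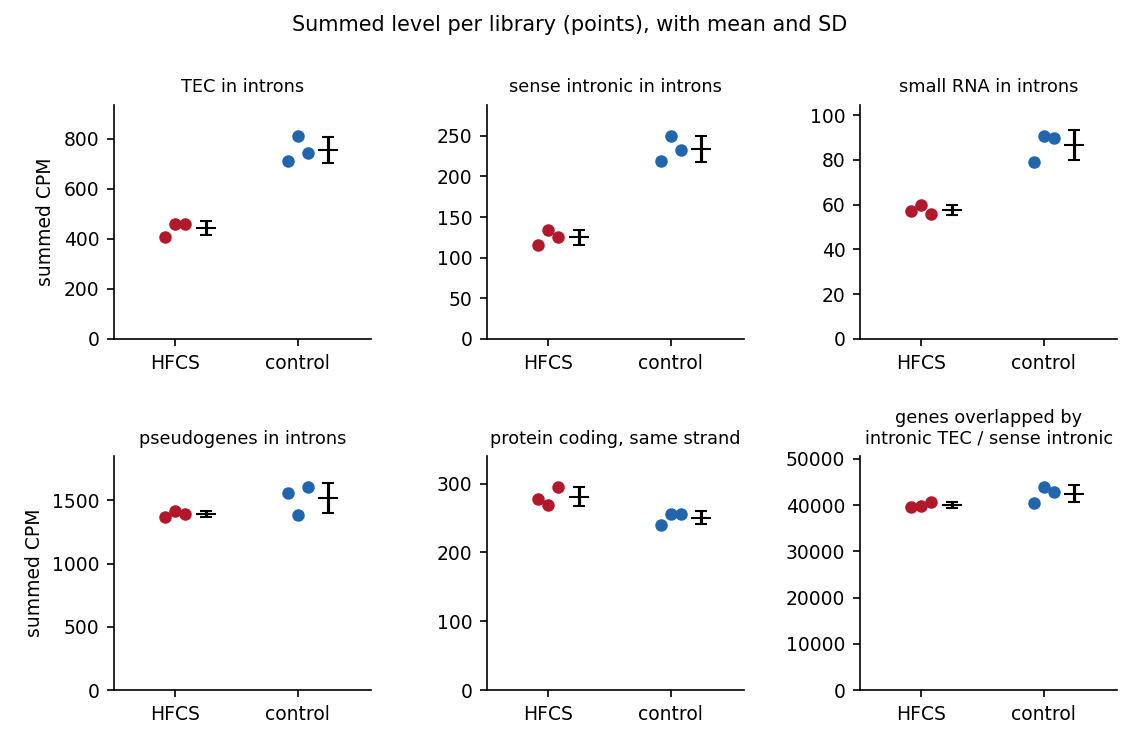
Summed level per library in CPM (vertical axes, from 0) for kinds of unnamed genes and, at the lower right, for the genes that hold the intronic TEC and sense-intronic models. Points are the 3 libraries of each label, and the black mark beside them is the mean with its SD. HFCS points lie below control points for TEC, sense-intronic and small RNA models, above them for protein-coding members, and the groups overlap for pseudogenes and for the overlapped genes.

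To ask whether an unnamed gene and the gene it overlaps changed unequally, both were put in 1 model with the library as a block, so that scaling between libraries cancels. The unnamed gene fell relative to its partner in 145 of 452 pairs and rose in 13 (edgeR quasi-likelihood interaction, adjusted p under 0.05 over 2943 overlapping pairs of listed genes, of which 34.7% passed). The share that passed, 158 of 452, was near that background, and most of those that passed had the unnamed gene lower. In TEC pairs the unnamed gene was the lower in 98 of 239 and the higher in none, with 141 not passing. In 70 of the 239 the unnamed gene had reached the filter through the control libraries only and in 10 through HFCS only. The part of this entry in the split by direction was not tested. With a filter on the mean of all libraries, 98 of 230 TEC pairs were lower and none higher, and of all 423 member pairs 144 were lower and 11 higher. Sense-intronic pairs had 18 lower and 1 higher of 55, small RNA pairs 9 lower and none higher of 40, and pseudogene pairs 10 lower and 7 higher of 63. In pairs of an unnamed gene with a named gene on the opposite strand, the unnamed gene was lower in 228 and higher in 51 of 864. Among pairs of 2 named genes, 517 of 1411 passed. Which of these 2 genes came first was set by position alone, so their direction is no comparison for the member pairs. The median difference was -0.57 over the member pairs and -0.38 over the opposite-strand pairs.

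**Figure D3:**
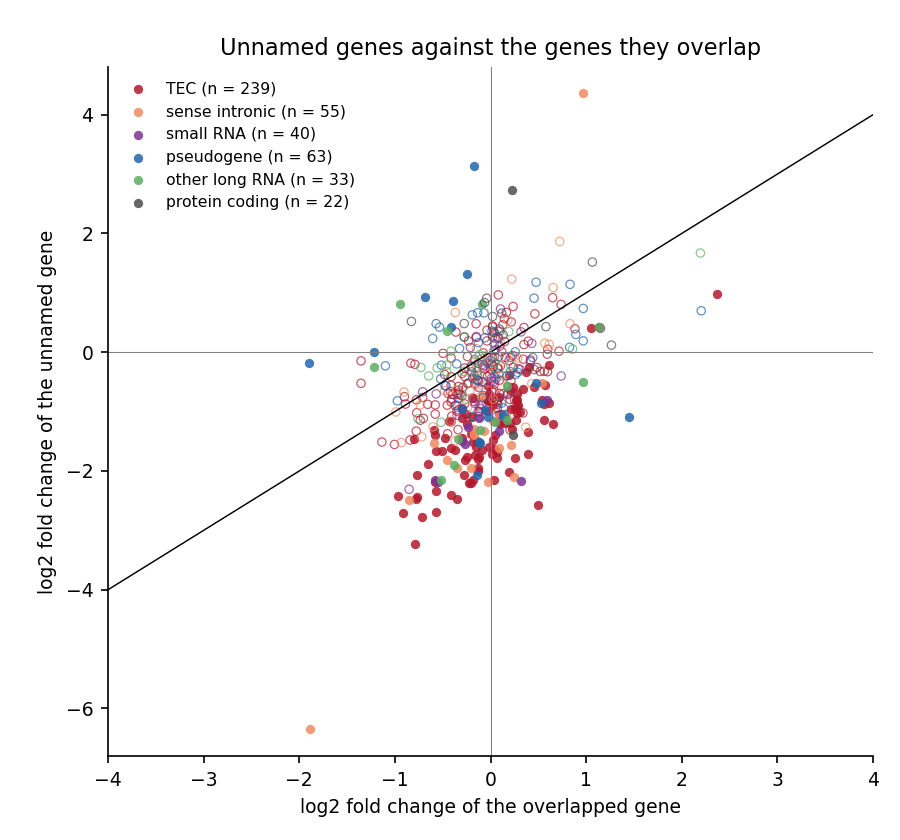
Log2 fold change (HFCS-labelled over control-labelled) of each unnamed gene (vertical axis) against that of the gene it overlaps (horizontal axis), 452 pairs coloured by kind. Filled points passed the test of unequal change, open points did not, and the diagonal marks equal change. TEC pairs that passed all lie below the diagonal.

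Unnamed genes had medians below 0 whichever way the overlapped gene moved. Where the overlapped gene rose (90 pairs, median 0.47), the median of the unnamed genes was -0.31, and where it fell (142 pairs, median -0.45) it was -0.89. In the 220 pairs whose overlapped gene did not pass, the median of the unnamed genes was -0.50. Both genes fell in 80 pairs and both rose in 9. In 21 pairs the genes passed in opposite directions, all 21 also passed the test of unequal change, and in 19 of them the unnamed gene was the one that fell. Across the 452 pairs the fold changes had Pearson's r of 0.40 and Spearman's rho of 0.34, a description only, since pairs share libraries and some share an overlapped gene. By kind, r and rho were 0.70 and 0.56 for sense-intronic, 0.50 and 0.51 for small RNA and 0.44 and 0.39 for TEC pairs. They were 0.39 and 0.24 for other long RNA, 0.20 and 0.19 for protein-coding and 0.07 and -0.0015 for pseudogene pairs.

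The unnamed gene was the lower by the median at every position within the overlapped gene. For intronic TEC and sense-intronic pairs, the median difference was -0.64 in the first stretch of the gene (up to 25% of its length), -1.003 in the next, then -0.60 and -0.67 in the last (65, 63, 79 and 65 pairs). Within 1 kb of an exon it was -0.65 (108 pairs), at 1 to 5 kb -0.73 (123 pairs) and beyond 5 kb -0.70 (41 pairs). From 43 to 98 counts the median was -0.77, from 99 to 182 -0.67 and from 187 to 2669 -0.65, and 47 of 91 pairs passed in the last group against 31 of 94 in the first.

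Several members fell while the gene around them rose. Gm42576 (ENSMUSG00000107205, chr5:75020236-75023081, minus strand), a TEC model of 2846 bases, lies in an intron of 15558 bases of Chic2, which encodes a membrane-associated vesicle protein. It was at 0.594, 0.131 and 0.5698 CPM in the HFCS libraries, in order of replicate, and 1.94, 3.23 and 2.61 CPM in the control libraries, and all HFCS values were below all control values. The log2 fold change was -2.57 ± 0.45 (SE), with an edgeR adjusted p of 0.00098. Gm42576 reached the filter through the control libraries only, so a lower HFCS level was part of how it entered the test. Chic2 itself was at 45.8, 45.3 and 44.7 CPM and 28.9, 32 and 35.1 CPM, higher under HFCS by 0.50 ± 0.09 (SE) (edgeR adjusted p = 0.00139), and the difference between the fold changes was -3.07 ± 0.39 (SE) (edgeR adjusted p = 0.000251).

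Gm38365 (ENSMUSG00000103591, chr1:87897540-87900532, plus strand), the TEC model whose 3′ end is printed above without the hexamer, sits in Dgkd, a kinase that converts diacylglycerol to phosphatidic acid. Its level was 1.86, 1.897 and 1.96 CPM under HFCS and 6.52, 7.41 and 4.87 CPM in control, a fold change of -1.71 ± 0.23 (SE) on the log2 scale (edgeR adjusted p = 0.000164). Dgkd stood at 680.2, 698 and 681 CPM and 515, 512 and 537 CPM, and its log2 fold change was 0.40 ± 0.06 (SE). Neither gene had overlapping groups, and they moved in opposite directions (difference -2.10 ± 0.23 (SE), edgeR adjusted p = 8.01e-05).

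In Lrig2, a transmembrane protein with leucine-rich repeats, the sense-intronic Gm43696 (chr3:104470660-104476730, minus strand) was at 0.371, 0.589 and 0.7597 CPM under HFCS and 2.64, 2.79 and 2.12 CPM in control. Those groups are well apart, and the log2 fold change was -2.10 ± 0.35 (SE) against 0.25 ± 0.08 (SE) for Lrig2 (difference edgeR adjusted p = 0.000263). The small nucleolar RNA Gm25788 (chr4:123291344-123291474, plus strand) is 131 bases long and lies 258 bases from an exon of Pabpc4, a cytoplasmic poly(A)-binding protein. It held 2, 5 and 3 counts under HFCS and 16, 15 and 13 in control, a log2 fold change of -2.18 ± 0.47 (SE) where Pabpc4 had 0.32 ± 0.10 (SE). The TEC model Gm48632 in Rcor1, a subunit of the CoREST repressor complex, shares 53 exon bases with it and was at 0.371, 0.589 and 0.886 CPM and 1.87, 3.596 and 1.06 CPM, with a fold change of -1.78 ± 0.50 (SE) against 0.25 ± 0.08 (SE). Without HFCS replicate 1 or control replicate 2 the edgeR adjusted p of Gm48632 was 0.0576 or 0.0757. Like Gm42576, the members Gm43696, Gm25788 and Gm48632 reached the filter through the control libraries only. The rises of the overlapped genes were small. Lrig2 lost its call on leaving out HFCS replicate 2, HFCS replicate 3 or control replicate 3 (edgeR adjusted p 0.0893, 0.062 and 0.0544). Rcor1 lost it without HFCS replicate 1 or 3 (edgeR adjusted p 0.0627 and 0.0545), and Pabpc4, whose groups overlapped, without HFCS replicate 1, HFCS replicate 2, control replicate 2 or control replicate 3 (0.0853, 0.0729, 0.0981 and 0.102).

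**Figure D4:**
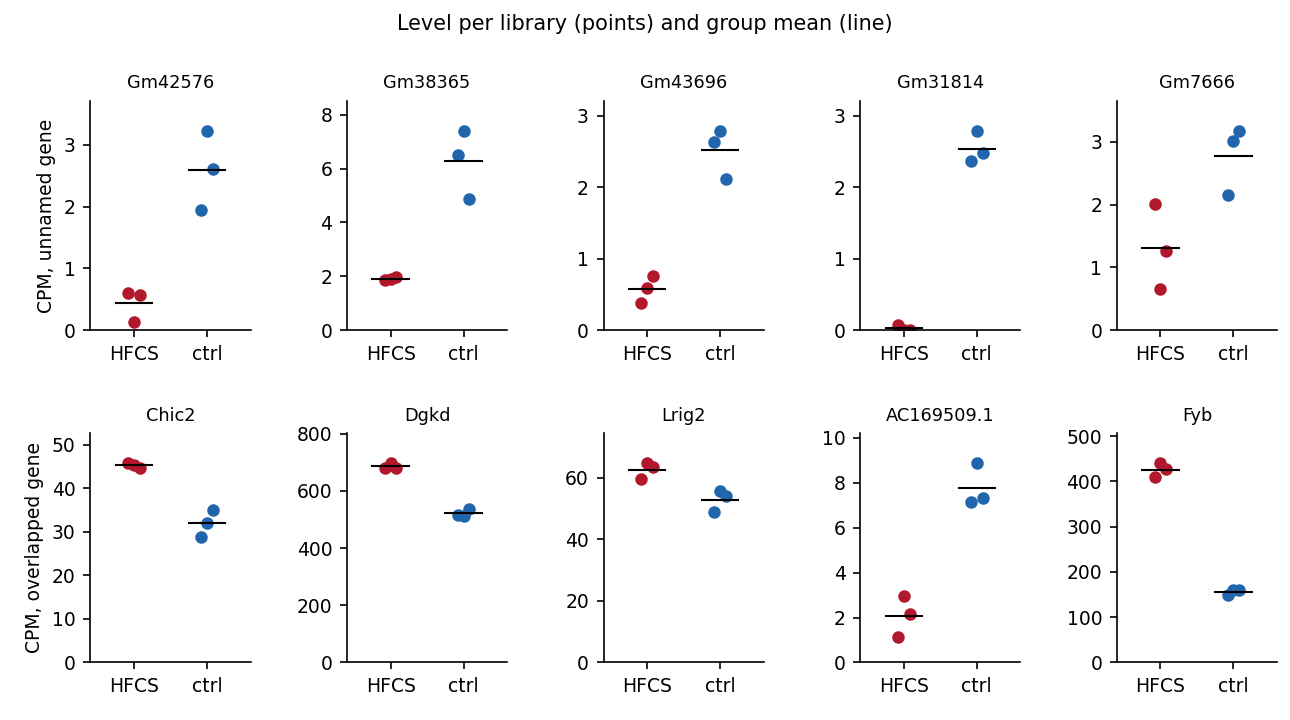
Level per library in CPM (vertical axes, from 0) of 5 unnamed genes (upper row) and of the genes they overlap (lower row). Points are the 3 libraries of each label and lines are group means. Gm42576, Gm38365, Gm43696 and Gm7666 are lower under HFCS while Chic2, Dgkd, Lrig2 and Fyb are higher, and Gm31814 is lower along with AC169509.1.

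The largest falls came from genes with few counts. Gm31814 (ENSMUSG00000115869, chr16:24186029-24263159, minus strand), a sense-intronic model inside the clone-named gene AC169509.1, had 1, 0 and 0 counts under HFCS and 34, 38 and 35 in control. Control was 113 times HFCS (95% exact interval 19.8 to 4502, counting error only), with an edgeR adjusted p of 2.42e-05. Gm31814 reached the filter through the control libraries only, so a lower HFCS level was part of how it entered the test. Without HFCS replicate 1, which holds the single count, all HFCS libraries are at 0 and the fitted fold is no measure of size. AC169509.1 fell too, from 7.14, 8.88 and 7.34 CPM in control to 1.11, 2.94 and 2.15 CPM under HFCS, -1.89 ± 0.28 (SE) on the log2 scale. The TEC models Gm43201 in Lcorl, Gm36955 in Pgap1, Gm6653 in Parpbp and Gm37052 in Rc3h1 had log2 fold changes of -3.23 ± 0.61 (SE), -2.78 ± 0.50 (SE), -2.71 ± 0.57 (SE) and -2.69 ± 0.59 (SE). Without HFCS replicate 2 Gm6653 was at -3.77, and without HFCS replicate 1 Gm37052 was at -3.66. Their partners, which encode a nuclear receptor corepressor-like protein, a GPI-anchor remodelling enzyme, a PARP1-binding protein and the mRNA decay factor Roquin-1, fell less, by 0.79 ± 0.11 (SE), 0.72 ± 0.11 (SE), 0.92 ± 0.16 (SE) and 0.57 ± 0.07 (SE) on the log2 scale. All 4 differences passed the pair test (edgeR adjusted p from 0.00353 to 0.0348), and that of Gm6653 did not pass without HFCS replicate 1, HFCS replicate 3, control replicate 1 or control replicate 2 (log2 differences -1.42, -1.40, -1.45 and -1.86).

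The 5 most counted sense-intronic models, named after values were seen, all fell. They were Gm17491 in the phosphate transporter gene Slc20a2, Gm42664 in the splicing regulator Ptbp2, Gm16310 in the mitochondrial ribosomal protein gene Mrps6, Gm47140 in the KRAB zinc finger gene Zfp445 and Gm17024 in Ifrd1. Gm16310 (ENSMUSG00000086331, chr16:92094568-92096490, plus strand), the spliced model whose junction is printed above, was at 3.19, 3.47 and 2.85 CPM under HFCS and 17.6, 17.3 and 18.5 CPM in control. Its libraries were within a narrow band in each group, and the log2 fold change was -2.49 ± 0.14 (SE) (edgeR adjusted p = 6.77e-07). Mrps6 was at 25.03, 29.9 and 27.6 CPM and 49.7, 47.4 and 52.2 CPM, and the difference was -1.64 ± 0.19 (SE) (edgeR adjusted p = 0.000119).

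Gm47140 (ENSMUSG00000111325, chr9:122847019-122848418, minus strand), whose 3′ end is printed above with the hexamer, fell where its partner did not pass. It was at 3.27, 4.64 and 2.72 CPM under HFCS and 15.3, 17.1 and 15.9 CPM in control, and Zfp445 was at 268, 288 and 271 CPM and 263, 293 and 288 CPM. The groups were far apart for Gm47140 (log2 fold change -2.18 ± 0.19 (SE), edgeR adjusted p = 9.79e-06) and overlapped for Zfp445 (-0.03 ± 0.07 (SE), edgeR adjusted p = 0.743). Gm17024 fell by 1.56 ± 0.14 (SE) on the log2 scale, where Ifrd1 had 0.22 ± 0.10 (SE) and did not pass. Gm17491 and Gm42664 fell by 0.64 ± 0.09 (SE) and 0.89 ± 0.16 (SE), and their partners by 0.35 ± 0.08 (SE) and 0.73 ± 0.11 (SE), with no unequal change called.

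The most counted intronic TEC models moved in both directions. Gm38248 in the DNA helicase gene Zranb3 and Gm43300 in Ptbp2 fell by 0.68 ± 0.12 (SE) and 1.14 ± 0.17 (SE) on the log2 scale, with Zranb3 and Ptbp2 lower by 0.33 ± 0.09 (SE) and 0.73 ± 0.11 (SE). A930004J17Rik in the splicing factor gene Srsf4 rose by 0.42 ± 0.14 (SE), as did Srsf4 by 0.35 ± 0.09 (SE), but its call was lost without HFCS replicate 2, HFCS replicate 3, control replicate 1 or control replicate 2 (edgeR adjusted p 0.0853, 0.0782, 0.0536 and 0.0974). Zranb3 lost its call on leaving out HFCS replicate 1 (edgeR adjusted p = 0.0563). None of these 3 pairs passed the test of unequal change. Gm45407 (chr8:77368841-77372516, minus strand) in Arhgap10, the other model printed with the hexamer, was at 2.303, 2.68 and 1.96 CPM under HFCS and 12.3, 13.7 and 12.6 CPM in control. It fell by 2.47 ± 0.17 (SE) on the log2 scale against 0.77 ± 0.08 (SE) for Arhgap10, a difference of -1.70 ± 0.18 (SE) (edgeR adjusted p = 7.7e-05).

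Intronic small RNA models were 57 to 343 bases long, and reads over them cannot be told apart from reads of the intron around them. The most counted was Gm24270, a miRNA model in the pseudokinase gene Peak1, at 12.9, 14.1 and 9.31 CPM under HFCS and 11.7, 8.37 and 12.6 CPM in control, which did not pass (0.15 ± 0.19 (SE)). The small nucleolar RNA Gm25117 in the histone chaperone gene Nap1l1 was at 0.891, 0.785 and 0.823 CPM and 3.95, 4.18 and 3.25 CPM and fell by 2.18 ± 0.27 (SE), where Nap1l1 fell by 0.55 ± 0.08 (SE). Gm22748 in Odc1, the first enzyme of polyamine synthesis, had a log2 fold change of -0.80 ± 0.35 (SE) and did not pass alone, while Odc1 rose by 0.59 ± 0.07 (SE) and the difference of -1.37 ± 0.32 (SE) passed (edgeR adjusted p = 0.00696). Gm25777 in Ranbp1, which helps nuclear transport, had -0.29 ± 0.25 (SE) and did not pass. Gm24378 in Wdhd1, a replication factor, and Gm27616 in Prrc2c fell by 0.87 ± 0.30 (SE) and 0.95 ± 0.31 (SE), but each lost its call when 1 of several single libraries was left out (for Gm24378 HFCS replicate 2 or 3 or control replicate 2 or 3, edgeR adjusted p 0.105, 0.129, 0.0695 and 0.153, and for Gm27616 HFCS replicate 1 or 2 or control replicate 1, 0.11, 0.0944 and 0.0783).

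Pseudogenes have a further partner, the gene they copy. Aligned to protein-coding transcripts, 102 of 118 matched one over at least 80% of their length, with a median identity of 97.03%, 64 at 95% or more, 33 at 99% or more and 7 without any difference. In 52 sets in which pseudogene, closest coding gene and overlapped gene were all tested, the fold change of the pseudogene was closer to that of the closest coding gene in 33, with a median absolute log2 difference of 0.37 against 0.61 to the overlapped gene. The correlation r of the fold changes was low, 0.22 with the closest coding gene and 0.03 with the overlapped gene. Whether a pseudogene moves with either was not tested. Reads from a copy and its original are uncertain in these counts, since a short read may fit both. The sources used here do not state how such reads were placed.

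Gm13394 (ENSMUSG00000083773, chr2:28933610-28934609, minus strand), in an intron of the cilium gene Cfap77, was the most counted member. It held 71809 counts, where Gapdh, 99.9% identical over its 1000 bases and normally among the most abundant messenger RNAs, held 2954. Gm13394 was at 718, 781 and 826 CPM under HFCS and 859, 809.6 and 969.8 CPM in control (-0.18 ± 0.08 (SE), edgeR adjusted p = 0.0932). Its groups overlapped. Gapdh had 259, 387 and 293 counts under HFCS and 1339, 366 and 310 in control, with control replicate 1 apart from the rest. Cfap77 held 197 counts in all. Gm12191 (chr11:49678710-49679057, minus strand) in Cnot6, a deadenylase of the CCR4-NOT complex, held 22759 counts, where the ribosomal protein gene Rpl30, 99.7% identical, held 7306, and its groups overlapped (0.01 ± 0.11 (SE), a sign that turned under upper-quartile scaling and without HFCS replicate 1, HFCS replicate 2 or control replicate 2). A stretch of Gm13394 and of Gapdh is printed above.

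Gm13835 (chr6:31141979-31142663, minus strand) had the sequence of Psma3 over all its 685 bases and lies in Lncpint, a long noncoding RNA induced by p53. It was at 52.1, 54.9 and 60.96 CPM under HFCS and 49.9, 70.9 and 70.1 CPM in control and did not pass (-0.18 ± 0.13 (SE)), and neither did Psma3 (-0.13 ± 0.07 (SE)). Lncpint, at 0.817, 1.37 and 1.33 CPM and 4.72, 4.84 and 3.74 CPM, fell by 1.90 ± 0.27 (SE), and the difference of 1.73 ± 0.29 (SE) passed (edgeR adjusted p = 0.00107). Gm13509, the copy of Ap2m1 in Mbd5, was at 36.2, 36.4 and 33.2 CPM and 42.8, 36.9 and 56.04 CPM, and did not pass (-0.36 ± 0.14 (SE), edgeR adjusted p = 0.0519), although all HFCS values lay below all control values. It passed in 8 of 15 alternative fits, among them DESeq2 (adjusted p = 0.0278), the replicate block (0.0196) and without control replicate 2 (0.0128), and adjusted p reached 0.239 without control replicate 3. Gm7666 (chr15:6653923-6654741, plus strand) is 99.9% identical to the prohibitin gene Phb and lies in Fyb, an adaptor protein of immune cell signalling. It was at 2.01, 0.654 and 1.27 CPM under HFCS and 2.15, 3.01 and 3.18 CPM in control, and the groups did not overlap. Its log2 fold change was -1.10 ± 0.37 (SE), that of Phb -0.71 ± 0.07 (SE) and that of Fyb 1.45 ± 0.07 (SE). The edgeR adjusted p of Gm7666 was 0.0342 with all libraries and 0.114, 0.0826, 0.0892 and 0.102 without HFCS replicate 2, HFCS replicate 3, control replicate 2 and control replicate 3 in turn. The difference from Fyb passed in each of those fits.

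**Figure D5:**
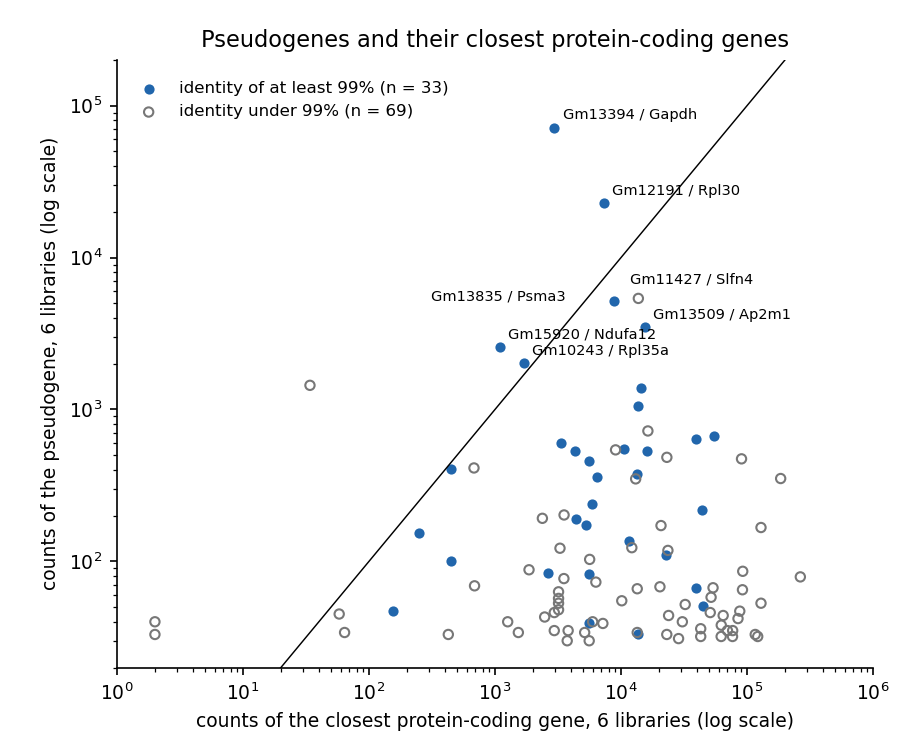
Summed counts over 6 libraries of 102 pseudogenes (vertical axis, log scale) against those of the closest protein-coding gene (horizontal axis, log scale). Filled points have an identity of at least 99%, open points less, and the line marks equal counts. Gm13394 with 71809 counts and Gm12191 with 22759 lie above the line, and 7 pseudogenes do in all.

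Members that rose were fewer and more mixed. Gm45380 and Gm48551 reached the filter through the HFCS libraries only, so a higher HFCS level was part of how they entered the test. Gm45380, a copy of Rpl31 at 95.7% identity in the mitochondrial disaggregase gene Clpb, had 13, 13 and 14 counts against 1, 2 and 1, a log2 fold change of 3.13 ± 0.56 (SE). Rpl31 had 0.16 ± 0.12 (SE) and Clpb -0.17 ± 0.07 (SE), and neither passed. Gm48551, a coding model that reaches partly outside Dohh, an enzyme of hypusine synthesis, and shares 972 exon bases with it, was at 1.71, 1.77 and 0.9496 CPM under HFCS and 0.347, 0.0734 and 0.212 CPM in control (2.74 ± 0.53 (SE)), where Dohh did not pass.

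Gm45738 in the zinc finger gene Zfp777, Gm49539 overlapping Lncppara and 6530402F18Rik overlapping the netrin gene Ntng2 rose by 1.86 ± 0.51 (SE), 1.74 ± 0.51 (SE) and 1.67 ± 0.47 (SE) on the log2 scale. Each lost its call when a single library was left out. Without HFCS replicate 3 the edgeR adjusted p of Gm45738 was 0.0517 and that of Gm49539 0.0823, without control replicate 3 that of Gm49539 was 0.0654, and without HFCS replicate 2 that of 6530402F18Rik was 0.0729. Ntng2 itself had a larger log2 fold change than 6530402F18Rik, 2.20 with all libraries and 3.09 without control replicate 3.

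Among the 10 most counted members, several are not intronic. Gm49759 (ENSMUSG00000111394, chr9:59672814-59676700, plus strand), a TEC model of 3887 bases that shares 767 exon bases with the pyruvate kinase gene Pkm, was at 125, 144 and 132 CPM under HFCS and 227, 256 and 252 CPM in control. It fell by 0.87 ± 0.08 (SE) and Pkm by 0.89 ± 0.07 (SE), and the pair did not pass the test of unequal change (difference 0.02 ± 0.18 (SE), edgeR adjusted p = 0.96). 2410006H16Rik (chr11:62602877-62604807, plus strand), a long RNA that holds the small nucleolar RNA gene Snord49a in its intron, was at 243, 243 and 152 CPM under HFCS and 129, 40.7 and 49.2 CPM in control and rose by 1.54 ± 0.36 (SE), with control replicate 1 well above the other control libraries. Without that library its log2 fold change was 2.24. Gm16286, a coding model partly outside the spliceosome gene Txnl4a, rose by 0.66 ± 0.11 (SE), where Txnl4a had 0.12 ± 0.13 (SE) and did not pass. Gm11427, an unprocessed pseudogene overlapping AI662270, was at 75.3, 83.5 and 79.4 CPM under HFCS and 40.02, 45.3 and 45.7 CPM in control and rose by 0.86 ± 0.08 (SE), while AI662270 fell by 0.39 ± 0.09 (SE). Its closest coding gene, the schlafen family member Slfn4 at 91.96% identity, rose by 0.78 ± 0.06 (SE). This was 1 of 2 pairs in which the unnamed gene rose and its partner fell. 1810026B05Rik, partly outside the chromatin remodeller gene Chd2, fell by 0.57 ± 0.09 (SE) where Chd2 had 0.17 ± 0.07 (SE) and did not pass (difference -0.74 ± 0.13 (SE), edgeR adjusted p = 0.00183). 4931406P16Rik, a coding model that spans BC060293, did not pass (0.20 ± 0.08 (SE)).

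The fold changes of members of the same overlapped gene were spread, and whether they differ beyond error was not tested. In the 41 overlapped genes with more than 1 tested member, the highest and lowest log2 fold change were a median of 0.51 apart (range 0.01 to 2.16), and in 30 of them every tested member lay below 0, in 2 every one above. Most members lay below 0 in any case, with an upper quartile of -0.07 over all 472 tested. Kansl1l, Galnt7, Picalm and Raet1e held 4 members each. In Kansl1l, which fell by 0.41 itself, the 4 ran from -0.84 to -0.10 and 2 fell. Kansl1l itself passed without control replicate 1 and in none of the other fits that leave a library out (edgeR adjusted p 0.0592 to 0.203). The glycosyltransferase gene Galnt7 had 1 member with enough counts, at -2.48, and fell by 0.35 itself. None of 3 tested members of the clathrin assembly gene Picalm passed (-0.10 to 0.43), nor did Picalm (0.02, a sign that turned under upper-quartile scaling and without HFCS replicate 3 or control replicate 1). Raet1e, which encodes a ligand of the activating receptor NKG2D, rose by 0.97, and of its 3 tested members 1 rose and none fell (-0.49 to 0.74).

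Of 1719 genes that meet the rule on symbols and overlap, 1002 held fewer than 30 counts. At the minimum, A230103L15Rik in Snhg14, Gm17082 in Tm9sf2 and Gm19040 in Atg7 were 3 of 12 with exactly 30 counts, with 1, 4, 4, 2, 7 and 12 counts, 3, 2, 8, 8, 7 and 2 counts, and 0, 3, 10, 6, 6 and 5 counts in the HFCS and then the control libraries, each in order of replicate. Just under it, 1500005C15Rik in Alpk1, 4930596I21Rik in Dennd1b and A630081D01Rik in Dock10 were 3 of 15 with 29 counts, with 1, 4, 1, 6, 9 and 8 counts, 0, 5, 8, 6, 8 and 2 counts, and 6, 5, 8, 2, 6 and 2 counts in the same order. At such counts a library moves by several counts in either direction, and no difference was read from them.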

How the data were processed

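RNA of RAW264.7 cells was sequenced in 6 libraries, 3 labelled HFCS and 3 control. The authors deposited raw read counts for each gene, not normalised, in 1 table of 24379 genes with coordinates. Per the submitters' processing notes, counts rest on featureCounts 1.5.0-p3, HISAT2 2.0.5 and CASAVA, with build mm10. The sources used here do not give the annotation release, the strand setting, how reads with several placements or over overlapping genes were handled, or any RNA selection. Per the labels' protocols RNA was taken with Trizol and libraries made by Illumina methods.

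Symbols matched 24344 identifiers and not 35. The table gives no gene classes, so classes, exons and transcripts came from GENCODE M21 (GRCm38), in which 716 of 717 members have the same coordinates. An opposite-strand overlap counted only for genes with another type of symbol, and 47 members have a further unnamed gene on the other strand. The overlapped gene is the one with the longest overlap (21 members overlap more than 1).

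Genes were kept by filterByExpr with a minimum count of 10 and compared with edgeR 4.0.16 (R 4.3.3, TMM scaling, glmQLFTest), adjusted by the Benjamini-Hochberg method over 14360 genes. Pairs were tested as an interaction between gene and group with the library as a block, over 2943 pairs. Sums were compared by two-sided exact permutation, which with 3 against 3 cannot go below 0.1. Alternatives were scaling by library size alone, by upper quartiles and by median of ratios, limma 3.58.1 (voom and log2 ratios), DESeq2 1.42.0, other filters and member rules, the replicate number as a block, and each library left out. A filter on the mean of all libraries and shares without the most counted member were added after seeing the data. The fits were checked on simulated data. Pseudogenes were aligned with blastn 2.17.0.

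The members and lists were chosen with earlier results of these data known. Named members are the 10 most counted, the 6 highest and 6 lowest fold changes past the threshold without overlap, the 6 that differ most from the overlapped gene, up to 6 that moved opposite to it, and 3 on each side of the count minimum. Named after their values were seen were the 3, 5 and 6 most counted intronic TEC, sense-intronic and small RNA members, Gm45407, and the closest coding genes. A member that the rule names and a sequence are not reported here.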

Additional observations from a re-analysis of the deposited data

How the results depend on the processing

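Members called were 148 to 212 over all settings (191 as reported), pairs called 112 to 189 (158), and all genes called 5115 to 7550 (6447), each within 1.5 times of the reported count. Members called higher were 23 as reported and 14 without HFCS replicate 2, which is outside that range. Of the 191 calls, 139 to 191 were shared with each alternative fit, all in the same direction. With each library left out in turn, the median log2 fold change of members ran from -0.69 (without HFCS replicate 2) to -0.52. Counts of control replicate 1 differed more from control replicates 2 and 3 (chi-square per degree of freedom 18.6 and 15.6) than these from each other (4.02). Between HFCS libraries the value was 2.71 to 7.23. The highest count of genes called, 7550, came from leaving out control replicate 1. Whether the replicate numbers pair the samples is not stated and was not settled here. The correlation of deviations was 0.17, -0.064 and 0.19 for same-numbered libraries and -0.30 to 0.163 for differently numbered ones. With the replicate number as a block in edgeR, 208 members and 7152 genes were called. For pairs the block was fitted with limma on log2 ratios, which called 162 with it and 147 without it. Single values near 0 changed sign. Under upper-quartile scaling Gm12191 was -0.0236 and Picalm -0.00994. With library size alone Cfap77 was 0.0509 and Zfp445 0.0492, and with no filter 0.00564 and 0.00400. With a library left out, the log2 fold change ran from -0.10 (without control replicate 2) to 0.12 (without control replicate 1) for Gm12191, -0.0838 (without control replicate 1) to 0.10 (without control replicate 3) for Picalm, -0.17 (without control replicate 3) to 0.0578 (without control replicate 2) for Cfap77 and -0.0752 (without control replicate 1) to 0.00530 (without HFCS replicate 1) for Zfp445. It ran from -0.27 (without HFCS replicate 2) to 0.00361 (without HFCS replicate 3) for Rpl30 and from -0.00432 (without control replicate 2) to 0.32 (without HFCS replicate 3) for Gm24270. The difference of Gm13394 from Cfap77 ran from -0.29 (without control replicate 2) to 0.0649 (without control replicate 3), that of Gm49759 from Pkm from -0.0834 (without control replicate 1) to 0.10 (without control replicate 2) and that of A930004J17Rik from Srsf4 from -0.0302 (without control replicate 1) to 0.19 (without control replicate 3). The other 84 log2 fold changes kept their side of the threshold in 1174 fits, lost the call in 42 and gained it in 41, and the other 35 pair differences did so in 363, 4 and 15. Of 15 fits each, the call was gained in 8 for Gm13509, 5 for Gapdh and 4 each for Clpb, Cnot6, Ifrd1 and Tm9sf2. The causes were not tested. With a median of 78 counts, depth limits what can be said of most members singly.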
